A study of Mus musculus with 6 samples.

Results

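The carnitine shuttle genes described here are 7 genes of 27998 in the count tables, taken by symbol: Slc22a5, Cpt1a, Cpt1b, Cpt1c, Slc25a20, Cpt2 and Crat. Each symbol stood for 1 row, and each gene had at least 1 UMI, as did 18117 genes in all. They were followed in single cardiomyocytes (CMs) of the left ventricle of C57BL/6J mice at embryonic day 16.5 (E16.5) and at postnatal days 1 and 5 (P1 and P5), each age divided into diploid (2n) and tetraploid (4n) CMs. The dissociated cells were stained for viability, fixed in methanol and rehydrated. They were sorted by an antibody to the muscle protein MYH1 and by Hoechst, a DNA dye. A 4n cell may thus be binucleated, polyploid or in G2/M, and since doublets were not called, also 2 joined cells. Cells of 3 sorts, from different litters, were pooled into 1 droplet library per age and ploidy, named here by both (P1-4n holds the tetraploid CMs of P1). The labels name no transgene and no treatment, and for E16.5-4n the title and the other label fields differ slightly in the embryonic day, and the title was followed.

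Long-chain fatty acids reach the mitochondrial matrix only as carnitine esters. Carnitine palmitoyltransferase 1 on the outer membrane passes the acyl group from CoA to carnitine and is blocked by malonyl-CoA, a translocase in the inner membrane exchanges acylcarnitine for free carnitine, and carnitine palmitoyltransferase 2 on the matrix side rebuilds acyl-CoA for beta-oxidation. The heart draws mostly on glucose and lactate before birth and turns to fatty acids afterwards, and the muscle isoform Cpt1b is known as the main form of the first step in the adult heart.

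Transcripts were counted from their 3′ ends by unique molecular identifiers (UMIs), short random tags by which copies of 1 molecule are counted only 1 time. A level below is the sum of a gene's UMIs over the CMs of a library, given per 1000000 UMIs of those CMs (CPM), which counts molecules and is therefore not divided by gene length. Cells with at least 1 UMI of each of Tnni3, Tnnt2, Tnnc1 and Actc1, all of them cardiac sarcomere genes, were taken as CMs. They were 30733 of 31156 cells, between 3654 (P5-4n) and 7340 (P1-2n) per library, with 13070343 to 19665830 UMIs per library and a median of 1831 to 4658 UMIs per CM. The 8 cardiomyocyte markers checked had UMIs in every library and summed to between 31122 and 38253 CPM. Fibroblast markers (7 of 7 with UMIs in every library) summed to 105 to 789 CPM, endothelial markers (6 of 6) to 19.3 to 102, mural markers (5 of 5) to 9.78 to 86.6, and macrophage markers (6 of 6, but Fcgr1 at 0 in E16.5-2n) to 7.05 to 26.4. P1-4n and E16.5-4n stood apart, since 37.2% and 24.4% of their CMs held at least 2 UMIs of these 24 genes, against 3.30% to 17.7% in the other 4 libraries. Erythroid markers (6 of 6) summed to 1649 to 10332 CPM and cycling markers (16 of 16) to 123 to 2687 CPM, both highest in E16.5-4n. Pairs of libraries shared 17 to 62 cell barcodes, at most 1.22% of the cells of a library. A range in parentheses is an exact 95% interval (Poisson for levels, Clopper-Pearson for shares, for ratios the binomial split of UMIs), and it covers counting error only. With 1 library per group there is no spread between replicates, so no test was made, and differences between libraries are given as values. In the comparisons between ages, less RNA of a gene per cell and fewer cells that carry it cannot be told apart in the summed levels.

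All 7 genes together gave 35649 UMIs in CMs. Their summed level was 203 CPM (196 to 211) in 2n and 168 CPM (161 to 175) in 4n CMs at E16.5, 456 CPM (445 to 466) and 409 CPM (400 to 418) at P1, then 426 CPM (417 to 436) and 397 CPM (388 to 407) at P5. The E16.5 libraries were the low ones at both ploidies, and the 4 postnatal libraries lay close to each other. The summed ratio of P1 to E16.5 was 2.25-fold in 2n CMs, a log2 ratio of 1.17 (1.10 to 1.23), and 2.43-fold in 4n CMs, a log2 ratio of 1.28 (1.21 to 1.35). From P1 to P5 the log2 ratio was -0.10 (-0.14 to -0.05) in 2n CMs and -0.04 (-0.09 to 0.01) in 4n CMs, and both changed sign, to 0.01 and 0.16, when the libraries were scaled by the median of gene ratios instead of the total.

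The UMIs were unevenly divided between the genes. Crat gave 13421, Slc25a20 10360, Cpt2 9433 and Cpt1a 2156, whereas Slc22a5 gave 182, Cpt1c 77 and Cpt1b 20. Among the 18117 genes with UMIs, Crat held place 910, Slc25a20 1152, Cpt2 1253 and Cpt1a 4147, and Cpt1b held place 13519. Crat took the largest share of the shuttle's UMIs in every library, between 35.1% (P1-2n) and 41.8% (E16.5-4n). The share of Cpt1a was 8.73% in E16.5-4n and 6.23% in its diploid counterpart, against 5.14% in P5-4n and 4.54% in P5-2n.

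**Figure D1:**
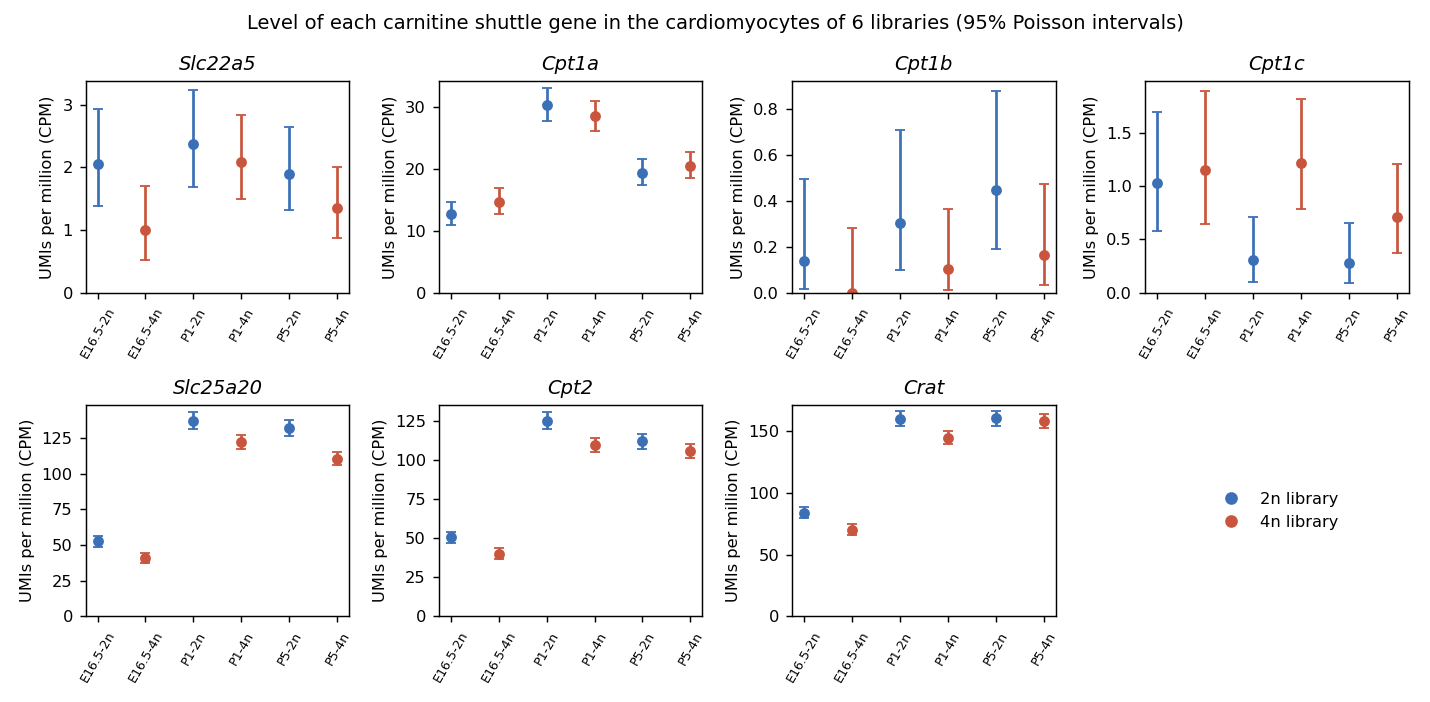
Level of each of the 7 genes (vertical axis, CPM, from 0, with a scale of its own in each panel) in the 6 libraries (horizontal axis), with 2n libraries in blue, 4n libraries in red and exact 95% Poisson intervals as bars. Slc25a20, Cpt2 and Crat were lowest in both E16.5 libraries, Cpt1a was highest in both P1 libraries, and Cpt1b stayed between 0 and 0.446 CPM.

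Only 4 of the 7 genes had at least 100 UMIs over both libraries in each comparison, namely Cpt1a, Slc25a20, Cpt2 and Crat, and these were set beside all genes that passed the same limit. From E16.5-2n to P1-2n 3 of the 4 were higher by a fold of 2 or more and none was lower, where 1.98% of 9391 genes were higher and 12.1% lower by that fold. Their median log2 ratio was 1.29 (lowest 0.93, highest 1.39), against -0.34 over all genes. From E16.5-4n to P1-4n it was again 3 of 4, with 2.88% of 9958 genes higher and 11.6% lower, and the median was 1.25 (0.95 to 1.58) against -0.30. The gene short of a fold of 2 was Crat in the 2n pair and Cpt1a in the 4n pair. These calls depended on the scaling. Crat in 2n and Cpt1a in 4n CMs passed a fold of 2 with log2 ratios of 1.27 and 1.28 under median-of-ratios scaling. They had 1.16 and 1.20 without the 50 genes with most UMIs in the total, and 1.04 and 1.07 in CMs thinned to 2000 UMIs. The shares of all genes above are for scaling by the total. None was computed under these alternatives, so the values there have no background beside them.

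None of the 4 genes passed a fold of 2 from P1 to P5. In the 2n pair, where 3.02% of 9230 genes were higher and 1.98% lower, the median of the 4 genes was -0.11 (lowest -0.64) and that of all genes -0.09. In the 4n pair, where 2.40% of 9764 genes were higher and 5.85% lower, the medians were -0.10 and -0.16. Over the whole span from E16.5 to P5, 2 of 4 genes were higher in 2n CMs (3.03% of 9505 genes higher, 16.8% lower) and 3 of 4 in 4n CMs (2.48% of 9600 genes higher, 21% lower). Under median-of-ratios scaling Cpt1a and Crat had log2 ratios of 1.06 and 1.38 in 2n CMs, and Cpt1a 1.00 in 4n CMs. The share of all genes past a fold of 2 under that scaling was not computed, so these values have no background beside them. These comparisons share libraries and are not independent of each other.

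Between ploidies of 1 age none of the 4 genes differed by a fold of 2, where 4.66% of 9625 genes did so before birth, 5.23% of 9653 at P1 and 2.28% of 9349 at P5. The median log2 ratio of 4n to 2n over the 4 genes was -0.30 before birth, -0.16 at P1 and -0.05 at P5, against 0.03, 0.05 and 0.02 over all genes. Slc25a20, Cpt2 and Crat were lower in the 4n library at all 3 ages, but the intervals of Cpt2 and Crat held 0 at P5. For the sum of the 7 genes the log2 ratio was -0.27 (-0.35 to -0.19), -0.16 (-0.20 to -0.11) and -0.10 (-0.15 to -0.06). The summed fibroblast, endothelial and mural markers were higher in the 4n library of each age, and the macrophage markers were so at E16.5 and P1. Without the CMs that carried at least 2 of their UMIs the ratio was -0.22 at E16.5, -0.09 at P1 and -0.09 at P5. Of these, only that at P1 lay outside the counting interval above. The part of those markers in the rest was not tested.

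**Figure D2:**
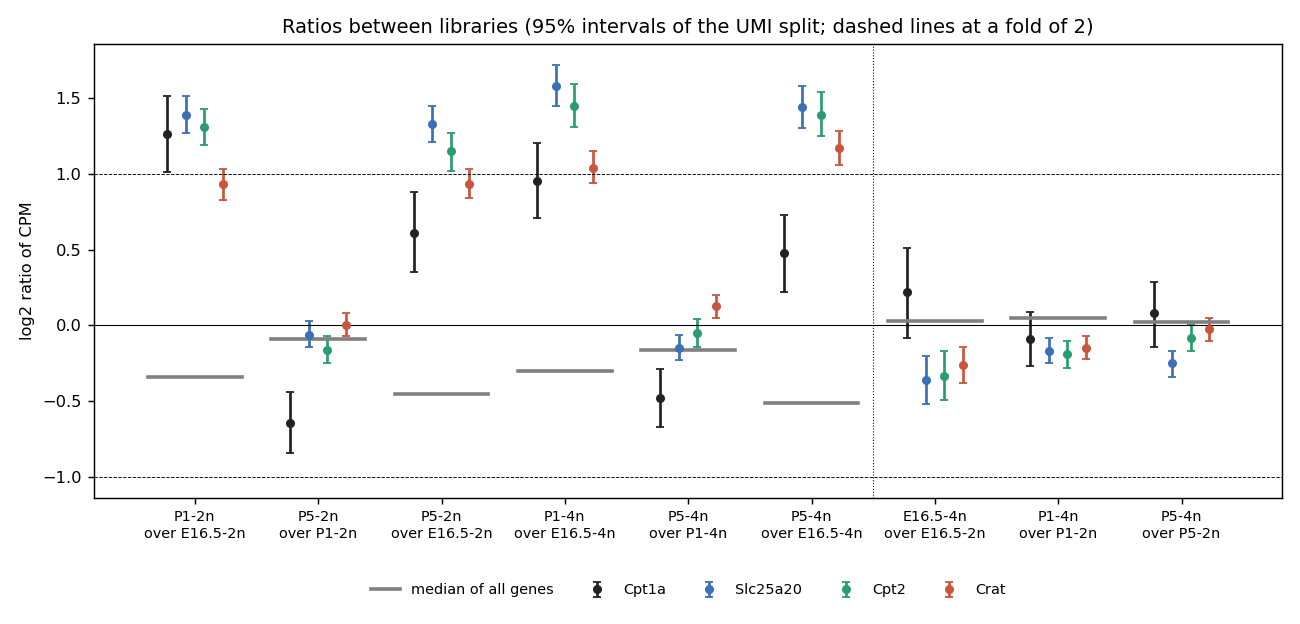
Log2 ratio of CPM (vertical axis) for Cpt1a, Slc25a20, Cpt2 and Crat in the 9 comparisons (horizontal axis, 6 between ages to the left of the dotted line and 3 between ploidies to the right), with 95% intervals of the UMI split as bars, the median of all genes as grey lines and a fold of 2 as dashed lines. All 4 genes lie above the grey line in the comparisons of P1 or P5 with E16.5, and Cpt1a lies lowest of the 4 in both comparisons of P5 with P1.

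Slc22a5 (ENSMUSG00000018900, chromosome 11 of GRCm38, 53864542 to 53891660, minus strand) encodes OCTN2, which brings carnitine into the cell across the plasma membrane. It gave 30 UMIs in 2n and 13 in 4n CMs at E16.5, 39 and 41 at P1, then 34 and 25 at P5. Its level thus lay between 0.995 CPM (E16.5-4n) and 2.37 CPM (P1-2n), and the Poisson intervals of all 6 libraries overlapped. The log2 ratio of P1 to E16.5 was 0.21 (-0.51 to 0.95) in 2n CMs and 1.07 (0.14 to 2.09) in 4n CMs, the latter resting on the 13 UMIs of E16.5-4n. No other difference between ages was detectable at this depth, and between ploidies only that at E16.5, with a log2 ratio of 4n to 2n of -1.04 (-2.11 to -0.06), left out 0. The last 500 bases of its longest coding transcript held 401 windows of 100 bases. Of these, 262 were found unchanged in transcripts of the neighbouring paralog Slc22a21. Reads that lie wholly within such a window cannot be given to 1 gene, while longer reads may reach bases that differ. Slc22a21 itself gave 49 UMIs. Counts of both are therefore uncertain, and how many reads were lost was not tested.

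Cpt1a (ENSMUSG00000024900, chromosome 19, 3322334 to 3385733, plus strand) encodes the liver isoform of carnitine palmitoyltransferase 1, which is also the form known from the fetal heart. Its level was 12.7 CPM (10.9 to 14.6) in 2n and 14.7 CPM (12.7 to 16.9) in 4n CMs at E16.5, 30.2 CPM (27.6 to 33.0) and 28.4 CPM (26.1 to 30.9) at P1, then 19.4 CPM (17.4 to 21.5) and 20.4 CPM (18.4 to 22.6) at P5. Both P1 libraries were high, both E16.5 libraries low, and the P5 libraries lay between them with no overlap of the intervals between ages. Within an age, the intervals of the 2 ploidies overlapped. P1-2n was 2.39-fold above E16.5-2n, a log2 ratio of 1.26 (1.01 to 1.51), and P1-4n was 1.94-fold above E16.5-4n, a log2 ratio of 0.95 (0.71 to 1.20). Cpt1a was then lower at P5 than at P1 by a log2 ratio of -0.64 (-0.84 to -0.44) in 2n CMs and -0.48 (-0.67 to -0.29) in 4n CMs, a direction it kept under all 8 other scalings and filters.

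Cpt1b (ENSMUSG00000078937, chromosome 15, 89416405 to 89425863, minus strand), the muscle isoform, gave 2 UMIs in 2n and 0 in 4n CMs at E16.5, 5 and 2 at P1, then 8 and 3 at P5. These 20 UMIs came from 20 CMs, and the cells outside the CM filter gave 0. In CPM the values were 0.137, 0, 0.304, 0.102, 0.446 and 0.163 in the same order, and their intervals overlapped. The 0 in 4880 CMs of E16.5-4n allows up to 3 UMIs, or 0.230 CPM and 0.0615% of CMs with a counted UMI, and the upper bounds of its exact intervals are 0.282 CPM and 0.0756%. These cover counting error only and set no limit on how many CMs express the gene. The ratio of P5-2n to E16.5-2n was 3.26-fold with an interval on the log2 scale of -0.62 to 4.98, so that no course with age could be read. Counted UMIs of Cpt1b were thus near absent in all 6 libraries, whereas the liver isoform gave 2156.

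Another gene model overlaps Cpt1b in the annotation used here. In GENCODE release M21 of GRCm38 a further gene, Gm44502 (ENSMUSG00000116461, chromosome 15, 89416405 to 89429696, minus strand), runs through both Cpt1b and its upstream neighbour Chkb, and it has no row in the count tables. It shares 2744 of the 3372 exonic bases of Cpt1b (81.4%) and all of the last 500, where 3′ reads fall. All 401 windows of 100 bases there were found in Gm44502 as well. The other 6 genes shared 0 exonic bases with another gene on the same strand, and of their 3′ windows those of Slc22a5 alone were found elsewhere. The gene models of the release that the authors counted with were not used here. Whether a gene overlaps Cpt1b there, under this or another name, was not examined. The part of any overlap in the near absence of Cpt1b was not tested.

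**Figure D3:**
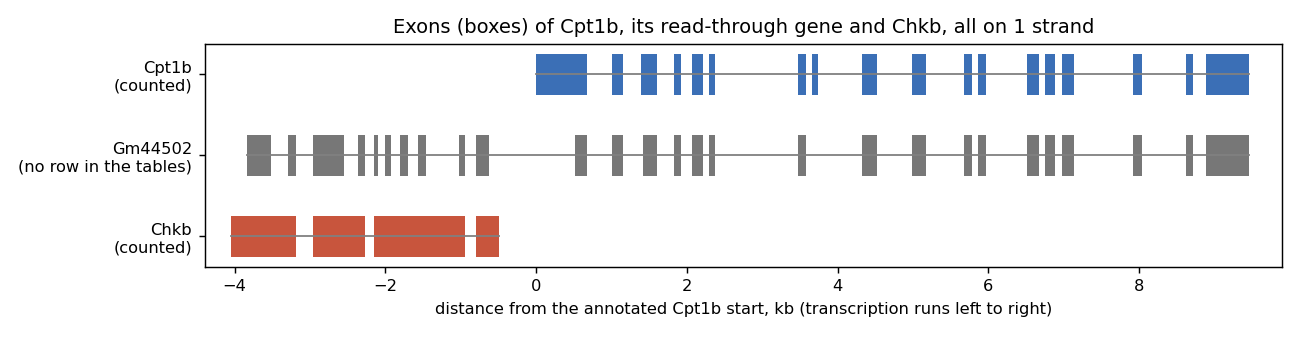
Exons (boxes) of Cpt1b, Gm44502 and Chkb by distance in kb from the annotated start of Cpt1b (horizontal axis), with 1 row per gene and transcription from left to right. Gm44502 holds most exons of Cpt1b, including the whole last exon, and its upstream exons lie within the Chkb locus.

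Chkb (ENSMUSG00000022617, chromosome 15, 89426360 to 89429908), a choline kinase next to Cpt1b on the same strand, was counted well. Its level was 49.3 CPM in 2n and 48.5 in 4n CMs at E16.5, 94.1 and 94.7 at P1, then 69.6 and 73.9 at P5. Like Cpt1a it was highest at P1, with a log2 ratio of P1 to E16.5 of 0.93 in 2n and 0.96 in 4n CMs and of P5 to P1 of -0.44 and -0.36. In GENCODE M21 it shares 0 exonic bases with Cpt1b. Of the other genes within 10 kb, Syce3 gave 0 to 3 UMIs per library and C730034F03Rik 15 to 35.

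Cpt1c (ENSMUSG00000007783, chromosome 7, 44959372 to 44974851, minus strand) is the isoform known from neurons, where it lies in the endoplasmic reticulum. It gave 15 UMIs in 2n and 15 in 4n CMs at E16.5, 5 and 24 at P1, then 5 and 13 at P5. P1-2n and P5-2n were the low libraries, and the log2 ratio of 4n to 2n at P1 was 2.00 (0.59 to 3.75). In P1-4n 17 of the 24 UMIs came from the 1767 CMs with at least 2 UMIs of other cell types, at 1.86 CPM, and 3 from the 2155 CMs with 0, at 0.408 CPM. In P5-4n these were 10 and 2 UMIs, in E16.5-4n 8 and 3, and in P5-2n 4 and 0. The few UMIs of Cpt1c thus moved with the markers of other cell types in the 4n libraries, and the part of those cells was not tested.

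Slc25a20 (ENSMUSG00000032602, chromosome 9, 108662088 to 108684641, plus strand) encodes the carnitine/acylcarnitine translocase of the inner membrane, and Cpt2 (ENSMUSG00000028607, chromosome 4, 107903981 to 107923610, minus strand) the transferase on its matrix side. Their promoters are shown because both genes had nearly the same course over the 6 libraries, beside that of Cpt1a, which had another. RefSeq (GRCm38.p6) gave the promoters of 5 of the 7 genes, from 250 bases before to 50 after the start, and those of Cpt1b and Crat were not used here. Capitals mark each match on either strand to 4 short motifs chosen after the sequences had been read. They are CCGGAAG as in sites of ETS factors, GGGCGG as in those of SP factors, CCAAT as in those of NF-Y, and AGGTCA as in those of nuclear receptors.
Cpt1a promoter, chr19:3323051-3323350, plus strand: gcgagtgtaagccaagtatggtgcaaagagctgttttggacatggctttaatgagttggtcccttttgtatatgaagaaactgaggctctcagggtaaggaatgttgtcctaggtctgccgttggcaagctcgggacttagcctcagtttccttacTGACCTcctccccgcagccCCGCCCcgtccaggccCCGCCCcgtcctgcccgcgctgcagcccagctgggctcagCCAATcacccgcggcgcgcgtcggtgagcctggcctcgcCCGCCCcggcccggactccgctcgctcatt
Slc25a20 promoter, chr9:108661886-108662185, plus strand: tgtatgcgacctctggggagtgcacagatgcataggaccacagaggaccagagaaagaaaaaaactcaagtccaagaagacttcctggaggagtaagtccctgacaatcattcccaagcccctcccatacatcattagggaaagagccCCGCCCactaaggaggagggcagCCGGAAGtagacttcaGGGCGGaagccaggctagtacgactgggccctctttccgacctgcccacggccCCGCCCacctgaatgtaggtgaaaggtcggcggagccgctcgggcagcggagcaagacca
Cpt2 promoter, chr4:107923540-107923839, minus strand: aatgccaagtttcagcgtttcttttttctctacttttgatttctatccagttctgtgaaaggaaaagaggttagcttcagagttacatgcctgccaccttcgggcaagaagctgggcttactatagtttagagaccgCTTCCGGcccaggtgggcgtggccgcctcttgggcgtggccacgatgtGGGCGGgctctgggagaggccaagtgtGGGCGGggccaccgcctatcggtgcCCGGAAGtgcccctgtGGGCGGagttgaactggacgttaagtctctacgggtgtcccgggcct

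CCGGAAG occurred 2 times in the Cpt2 promoter and 1 time in that of Slc25a20, and 8.86% of all 32851 promoters of this length held it. The other 3 promoters at hand (Cpt1a, Cpt1c and Slc22a5) did not hold these letters in this window. GGGCGG, found in 35.7% of all promoters, occurred in each of the 5. AGGTCA (16.3% of all promoters) and CCAAT (37.4%) each occurred 1 time in Cpt1a and 1 time in Cpt1c. A match is a description of the letters and not of a factor bound there.

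Slc25a20 stood at 52.5 CPM (768 UMIs) in 2n and 40.9 (534) in 4n CMs at E16.5, 137 (2256) and 122 (2405) at P1, then 132 (2363) and 110.5 (2034) at P5. Both E16.5 libraries were low, and the 4n library lay below the 2n library at each age. P1 was above E16.5 by a log2 ratio of 1.39 (1.27 to 1.51) in 2n CMs and 1.58 (1.45 to 1.72) in 4n CMs, where it was 2.99-fold, the largest ratio of P1 to E16.5 among the 4 genes with 100 UMIs. P5 differed from P1 by -0.06 (-0.14 to 0.03) in 2n CMs and by -0.15 (-0.23 to -0.06) in 4n CMs. Both turned to 0.05 under median-of-ratios scaling. At P5 the log2 ratio of 4n to 2n was -0.25 (-0.34 to -0.17), and in all alternatives it stayed between -0.29 and -0.25.

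Cpt2 stood at 50.5 CPM (739 UMIs) in 2n and 40.2 (526) in 4n CMs at E16.5, 125 (2058) and 110 (2157) at P1, then 112 (2006) and 106 (1947) at P5. The postnatal libraries were again the high ones. The log2 ratio of P1 to E16.5 was 1.31 (1.19 to 1.43) in 2n CMs and 1.45 (1.31 to 1.59) in 4n CMs. From P1 to P5 it was -0.16 (-0.25 to -0.07) in 2n CMs and -0.05 (-0.14 to 0.04) in 4n CMs, and the latter ranged from -0.17 to 0.15 over the alternatives. There were 0.962 UMIs of Cpt2 for each of Slc25a20 in 2n and 0.985 in 4n CMs at E16.5, 0.912 and 0.897 at P1, then 0.849 and 0.957 at P5. The ratio of captured molecules thus stayed near 1, lowest in P5-2n, while both levels were more than 2-fold higher at P1 than at E16.5.

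Cpt1a kept no such constant ratio to Cpt2. There were 0.250 UMIs of Cpt1a per UMI of Cpt2 in 2n and 0.365 in 4n CMs at E16.5, 0.242 and 0.259 at P1, then 0.173 and 0.193 at P5. Both P5 ratios were below the 4 others, although the interval in P5-4n (0.173 to 0.216) overlapped that in E16.5-2n (0.212 to 0.295). Per UMI of Crat, Cpt1a was lowest at P5 as well, with 0.121 (0.108 to 0.135) in P5-2n and 0.129 (0.116 to 0.144) in P5-4n, both of which overlapped the interval in E16.5-2n (0.128 to 0.176).

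Crat (ENSMUSG00000026853, chromosome 2, 30400471 to 30415813, minus strand) encodes carnitine acetyltransferase, which moves acetyl and other short groups between CoA and carnitine. Its level was 84.1 CPM (1230 UMIs) in 2n and 70.2 (918) in 4n CMs at E16.5, 160 (2634) and 145 (2848) at P1, then 161 (2878) and 158 (2913) at P5. Among the 4 genes with 100 UMIs it had the smallest step from E16.5 to P1 in 2n CMs, with a log2 ratio of 0.93 (0.83 to 1.03), and 1.04 (0.94 to 1.15) in 4n CMs. From P1 to P5 its log2 ratio was 0.00 (-0.07 to 0.08) in 2n CMs and 0.13 (0.05 to 0.20) in 4n CMs, and over the alternatives these ranged from -0.05 to 0.11 and from 0.05 to 0.33. Between the P5 libraries the log2 ratio of 4n to 2n was -0.02 (-0.10 to 0.05). Crat shares 470 exonic bases with genes on the other strand, which a strand-specific 3′ library keeps apart.

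Shares of CMs with a UMI followed the levels and the depth of the cells. Crat was seen in 18.8% of CMs in 2n and 16.6% in 4n CMs at E16.5, 28.4% and 40.8% at P1, then 44.6% and 51.1% at P5. Slc25a20 was seen in 10.1% (E16.5-4n) to 39.2% (P5-4n), Cpt2 in 9.73% to 39.0% and Cpt1a in 3.18% (E16.5-2n) to 10.7% (P1-4n). In CMs thinned to 1000 UMIs the shares of Crat were 8.60%, 7.35%, 13.9%, 13.1%, 14.4% and 14.2% in the order above, so that the 4 postnatal libraries lay within 13.1% to 14.4%. Thinned Cpt1a was seen in 1.08%, 1.30%, 2.95%, 2.82%, 1.80% and 1.86% of CMs, with P1 highest as for its level. Thinning left out shallower CMs, 700 from P1-2n, 163 from E16.5-2n, 20 from P5-2n, 23 from E16.5-4n and 0 from the other two libraries.

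The share that a uniform level over all CMs would give at their depths was close to the share observed. For Crat in P5-4n it was 52.1% against 51.1% (49.5 to 52.7), for Slc25a20 in P5-2n 39.6% against 38.5% (37.0 to 39.9), and for Cpt1a in P1-4n 10.8% against 10.7% (9.84 to 11.6). For Slc25a20 in P5-4n it lay just above the interval, at 40.86% against 39.24% (37.66 to 40.85). For the sum of the 7 genes it was above the observed share in 5 of 6 libraries, by most in P5-2n, where 77.2% stood against 74.0% (72.7 to 75.3). It also lay above the interval of the sum in P1-2n, with 58.62% against 57.33% (56.19 to 58.46). In P1-4n it was 72.6% against 70.7% (69.4 to 72.0), and in P5-4n 81.5% against 78.95% (77.6 to 80.3). At least 1 UMI of any of the 7 was present in 38.6% of the CMs of E16.5-2n and 78.9% of those of P5-4n. The most UMIs of 1 member in a single CM were 10, of Cpt2 in P1-4n. No sorted cell type known to lack these genes was at hand, so that the part of free RNA in the shares was not measured. Over the 6 pairs of the 4 genes and the 6 libraries, the number of CMs with both genes was 0.853 to 1.08 times that of uniform levels in the 29 of 36 cases where the latter reached 100.

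**Figure D4:**
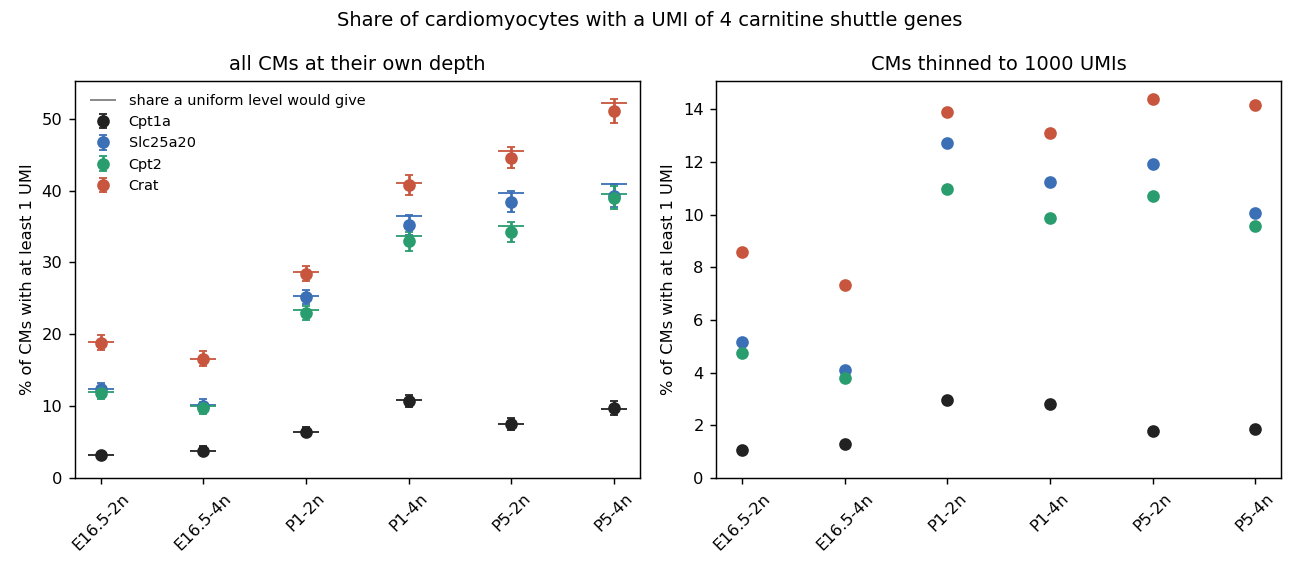
Share of CMs with at least 1 UMI (vertical axes, percent, each from 0) of Cpt1a, Slc25a20, Cpt2 and Crat in the 6 libraries, on the left at the depth of the cells with 95% intervals and with dashes for the share a uniform level would give, and on the right in CMs thinned to 1000 UMIs. The share of Crat on the left is highest in P5-4n at 51.1%, whereas on the right the 4 postnatal libraries lie between 13.1% and 14.4% for Crat.

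Within a library, CMs with at least 2 UMIs of 16 cycling genes were set beside CMs with 0. Cycling CMs were deeper, with a median of 5116 against 2777 UMIs in P1-4n, which CPM takes into account. Slc25a20 was lower in cycling CMs at E16.5, by a log2 ratio of -0.40 (-0.65 to -0.14) among diploid and -0.32 (-0.61 to -0.02) among tetraploid CMs. In P5-4n the log2 ratio was -0.29 (-0.43 to -0.15), with 101 CPM against 124. In the other 3 libraries its interval held 0. Cpt1a was higher in cycling CMs of P1-4n, by 0.36 (0.06 to 0.64), and of P5-4n, by 0.42 (0.07 to 0.78). The intervals of Cpt2 and Crat held 0 in all 6 libraries. Cells of 1 library are not replicates, and these values carry no test.

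CMs with at least 2 UMIs of other cell types had lower levels of Cpt2, Slc25a20 and Crat than CMs with 0 in all 6 libraries, by -0.02 to -0.41 on the log2 scale, but 11 of the 18 intervals held 0, among them all of E16.5-2n, P5-2n and P5-4n. In P1-4n, which had most such cells, Crat stood at 135 CPM against 154, a log2 ratio of -0.19 (-0.30 to -0.07). Cpt1a went the other way in P1-2n, with 48.1 CPM against 29.4, a log2 ratio of 0.71 (0.21 to 1.18) that rests on 41 UMIs. The steps from E16.5 to P1 were 1.14 to 1.51 for the sum in 2n CMs and 1.25 to 1.61 in 4n CMs over all 8 alternatives, the one without these cells included.

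CMs were also divided by the share of Myh6, the adult myosin heavy chain, in the UMIs of Myh6 and Myh7. Only CMs with at least 10 such UMIs entered. This left out 3000 of 5699 CMs in E16.5-2n and 2956 of 4880 in E16.5-4n. At P1 it left out 5225 of 7340 in 2n and 2225 of 4747 in 4n CMs, and at P5 2156 of 4413 and 1136 of 3654. In P1-2n the CMs with more and less Myh6 had medians of 3446 and 2690 UMIs, against 1831 over all its CMs. The median share was 7.14% in 2n and 6.25% in 4n CMs at E16.5, 73.7% and 76.5% at P1, and 100% in both P5 libraries, where CMs at 100% were set against those below. At P1 the sum of the 7 genes was higher in the CMs with more Myh6, by a log2 ratio of 0.17 (0.07 to 0.27) in P1-2n and 0.13 (0.06 to 0.21) in P1-4n. Slc25a20 stood at 147 CPM against 127 in P1-2n and at 135 against 118 in P1-4n. In E16.5-2n the sum was lower in CMs with more Myh6, by -0.20 (-0.34 to -0.06), and in the other 3 libraries its interval held 0. Each of these ratios of the sum was smaller than that of P1 to E16.5.

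**Figure D5:**
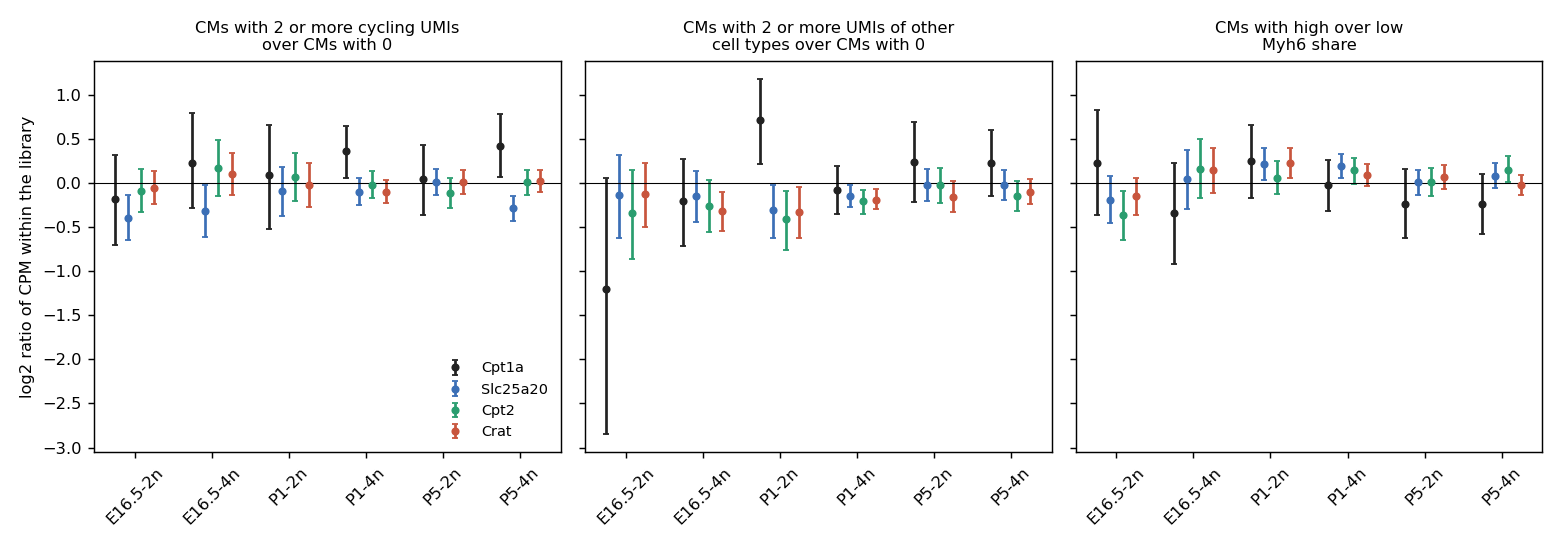
Log2 ratio of CPM between 2 sets of CMs of the same library (vertical axis, shared by the 3 panels) for Cpt1a, Slc25a20, Cpt2 and Crat in the 6 libraries (horizontal axes), with 95% intervals as bars. The intervals of Slc25a20 lie below 0 in the left panel (cycling CMs) at E16.5 and in P5-4n, the middle panel divides CMs by markers of other cell types, and those of Slc25a20 lie above 0 in the right panel (Myh6 share) in both P1 libraries.

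The genes whose course over the 6 libraries was most like that of a member were sought among 8454 genes with at least 500 UMIs, by the root mean square difference of log2 CPM after centring. For Cpt2 they were Emilin2 (0.0440), Nceh1 (0.0626) and Slc25a20 (0.0726), so that the translocase held place 3. For Slc25a20 they were Dhrs7c (0.0442), Atp2a2, the calcium pump of the sarcoplasmic reticulum (0.0532), and Syngr1 (0.0682), with Cpt2 in place 4. For Crat they were Zfp672 (0.0615), Etfb, which carries electrons from beta-oxidation (0.0616), and Tnni3, the adult troponin I (0.0655). For Cpt1a they were Npc1 (0.0869), Chkb (0.106) and Art3 (0.108). Of the other members, Crat held place 249, Cpt2 place 416 and Slc25a20 place 780 among the 8454 genes. With 6 libraries these are descriptions of similar courses.

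Of the genes that act before the shuttle, acyl-CoA synthetases activate fatty acids to acyl-CoA. Acsl1, with 25561 UMIs, had the largest step of the named pathway genes with 100 UMIs. It stood at 93.3 CPM in 2n and 68.6 in 4n CMs at E16.5, 342 and 313 at P1, then 319 and 315 at P5, a log2 ratio of P1 to E16.5 of 1.87 (1.79 to 1.96) in 2n and 2.19 (2.09 to 2.30) in 4n CMs. Acsl3 and Acsl5 were lower after birth, but Acsl3 mostly from P1 to P5. Its log2 ratio of P1 to E16.5 was -0.41 in 2n and -0.46 in 4n CMs. Its log2 ratio of P5 to P1 was -1.23 and -0.94. For Acsl5 these were -1.60 and -1.31, then -0.49 and 0.30. Acsl3 was at 74.2 CPM in E16.5-2n and 23.9 in P5-2n, and Acsl5 was lower in P5-2n than in E16.5-2n by a log2 ratio of -2.09 (-2.48 to -1.71). In 4n CMs the same step of Acsl5 was -1.01 (-1.29 to -0.73). At P5 its log2 ratio of 4n to 2n was 1.27 (0.87 to 1.68). Acsl4 changed by less than a fold of 2 in each comparison between ages. Of the 4 of 5 synthetases with 100 UMIs, 1 was higher and 1 lower by a fold of 2 from E16.5 to P1 in each ploidy, where 1.98% of all genes were higher and 12.1% lower in 2n, and 2.88% and 11.6% in 4n CMs. Their median was -0.11 in 2n and -0.20 in 4n CMs, against -0.34 and -0.30 over all genes.

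Malonyl-CoA, the inhibitor of the first step, is made by acetyl-CoA carboxylases and removed by malonyl-CoA decarboxylase. Of 9 genes of this control, 2 were higher by a fold of 2 at P1 than at E16.5 in each ploidy (1.98% of all genes in 2n, 2.88% in 4n CMs), and 0 were lower (12.1% and 11.6%). The median of the list was -0.12 in 2n and -0.25 in 4n CMs, against -0.34 and -0.30 over all genes. Mlycd, the decarboxylase, was at 42.9 CPM in 2n and 31.7 in 4n CMs at E16.5, 150 and 121 at P1, then 109 and 90.2 at P5. Acacb, the carboxylase of the mitochondrial surface, named after its values had been seen, was at 21.3, 20.5, 62.4, 60.5, 57.9 and 55.4 CPM in the same order. In 2n CMs the log2 ratio of P1 to E16.5 was 1.80 (1.68 to 1.93) for Mlycd and 1.55 (1.36 to 1.74) for Acacb. The other carboxylase of the list, Acaca, had a log2 ratio of -0.33 (-0.72 to 0.07) in 2n and -0.52 (-0.90 to -0.13) in 4n CMs. From P1 to P5 Mlycd was lower, by -0.46 (-0.54 to -0.37) in 2n and -0.42 (-0.51 to -0.33) in 4n CMs. Prkaa2 and Prkag1, subunits of the AMP-activated kinase that inhibits the carboxylases, had log2 ratios of P1 to E16.5 of -0.50 and -0.12 in 2n CMs.

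All 15 beta-oxidation genes passed the limit of 100 UMIs. From E16.5 to P1 5 were higher by a fold of 2 and 0 lower in each ploidy. Of all genes, 1.98% were higher and 12.1% lower in 2n, and 2.88% and 11.6% in 4n CMs. The medians of the list were 0.85 in 2n and 0.90 in 4n CMs, against -0.34 and -0.30 over all genes. The most abundant were Etfb with log2 ratios of 0.85 and 0.90, Acadl with 0.64 and 0.66, and Acaa2 with 1.15 and 1.14. Decr1 had the largest ratios of the list, 1.71 and 1.80, and Acadvl, the very-long-chain acyl-CoA dehydrogenase, followed with 1.62 and 1.63. Both were named after their values had been seen. From P1 to P5 0 of the 15 passed a fold of 2 in either direction, where 5.0% of all genes did so in 2n and 8.2% in 4n CMs.

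Of the 10 transcriptional regulators, 8 in 2n and 7 in 4n CMs had enough UMIs. None of these differed by a fold of 2 between E16.5 and P1, where 14.1% of all genes did so in 2n and 14.5% in 4n CMs. Esrra, the nuclear receptor ERR alpha, had log2 ratios of 0.19 and 0.33, Ppargc1a -0.07 and -0.16, and Ppargc1b 0.59 and 0.26. Pparg had 1 UMI in 2n and 2 in 4n CMs at E16.5, 8 and 17 at P1, then 7 and 5 at P5. Its ratio of P1-2n to E16.5-2n was 7.11-fold with a log2 interval of -0.07 to 8.30. For P1-4n to E16.5-4n its log2 ratio was 2.50 with a wholly positive interval (0.42 to 5.66), resting on 17 and 2 UMIs. Esrrb, also without enough UMIs, had log2 ratios of 0.60 (-0.24 to 1.47) in 2n and 1.26 (0.35 to 2.28) in 4n CMs. Ppara, without enough UMIs in 4n CMs, had -0.50 (-1.10 to 0.11) there. Of 7 genes of carnitine synthesis and further carriers, Crot and Aldh9a1 had enough UMIs. Neither passed a fold of 2 in any of the 9 comparisons, where 2.28% to 23.45% of all genes did so. Crot, the peroxisomal octanoyltransferase, went from 28.6 CPM in E16.5-2n to 18.9 in P5-2n. Slc25a29 gave 110 UMIs in all. Slc22a21 gave 11 UMIs in E16.5-2n and 2 in P5-2n, a log2 ratio of -2.75 (-5.97 to -0.56), and Acsl6 gave 11 in all.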

How the data were processed

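The authors deposited 1 matrix of unnormalized UMI counts for each of 6 libraries, made with Chromium 3′ v2 kits and, per the submitters' processing notes, with Cell Ranger and STAR (versions not given in the sources used here) on GRCm38 (mm10). Seurat 2.3.0 is named there too. The counts were used as deposited, with no column left unmapped. A deposited list of gene symbols and a table of p-values, fold changes and shares from the authors' own comparison were not used. Cells with at least 1 UMI of each of 4 markers were taken as CMs, and their counts were summed per library. Intervals are exact at 95% and cover counting error only, and a count of 0 allows up to 3 UMIs. The interval of a ratio was checked only on counts simulated under the Poisson model that it assumes. That check does not bear on differences between litters or cells. Doublets were not called, and leaving out the 5% of CMs with most UMIs was tried instead. Calls needed 100 UMIs over both libraries and a fold of 2. Named are the 7 genes, of each pathway list the 3 genes with most UMIs and those past a fold of 4 between ages, the 3 genes most like each member with at least 500 UMIs, and genes within 10 kb of Cpt1b. Of the pathway lists, Acacb, Acaca, Decr1, Acadvl, Esrrb and Ppara were named outside this rule. The members, lists and motifs were chosen with earlier results of these data known. Other scalings, depths and cell filters were tried as alternatives. Gene models came from GENCODE M21 and promoters from RefSeq (GRCm38.p6). Python 3.11.15, NumPy 2.4.6, SciPy 1.17.1, pandas 2.3.3 and Matplotlib 3.10.9 were used.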

Additional observations from a re-analysis of the deposited data

Results flagged for a closer look

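The 423 cells outside the CM filter, with a median of 1110 UMIs, entered the comparisons only where the filter was left out as an alternative, and they also held UMIs of the carnitine shuttle genes. Cpt1a had 18 UMIs there, or 35.0 CPM (20.8 to 55.3). Cpt2 had 22 (42.8 CPM), Slc25a20 29 (56.4 CPM) and Crat 24 (46.7 CPM), each above the 3 UMIs that a count of 0 allows. Cpt1c had 3, and Cpt1b and Slc22a5 had 0. These cells are pooled over the 6 libraries and are not a cell type.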

How the results depend on the processing

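Within a single comparison no paired analysis was possible because the groups share fewer than 2 replicate numbers. The litters of the 3 ages came from different breeding pairs, so differences between ages cannot be told apart from differences between litters. A test of 4n against 2n with the 3 ages as pairs was not run. With the libraries scaled by the median of gene ratios, the summed log2 ratio of P1 to E16.5 was 1.51 in 2n and 1.61 in 4n CMs, of P5 to E16.5 1.52 and 1.77, of P5 to P1 0.01 and 0.16 (both changes of sign), and of 4n to 2n -0.38 at E16.5 and -0.29 at P1. From P1 to P5 Slc25a20 then changed sign to 0.05 in both ploidies, and Cpt2 to 0.15 in 4n CMs. Of the 36 single ratios 10 stayed within their counting intervals under this scaling. With a total that leaves out the 50 genes with most UMIs, the ratio of P1 to E16.5 was 1.40 and 1.52 and of P5 to E16.5 1.35 and 1.53. Thinned to 2000 UMIs, P5-4n to P1-4n gave -0.10 and 4n to 2n at P5 -0.16. Without CMs that carry markers of other cell types, P5-4n to P1-4n gave -0.10 and 4n to 2n at P1 -0.09. The cause of these shifts was not tested. A mean over cells, either other CM filter and leaving out the deepest CMs moved none of the 9 summed and 36 single ratios beyond their counting intervals. With 20 in place of 100 UMIs, the genes past a fold of 2 were 2263 (1322 with 100) for P1-2n and E16.5-2n, 1082 (462) for P5-2n and P1-2n, 2933 (1889) for P5-2n and E16.5-2n, 2250 (1446) for P1-4n and E16.5-4n, 1611 (805) for P5-4n and P1-4n, 3440 (2251) for P5-4n and E16.5-4n, and 1022 (449), 1262 (505) and 441 (213) between ploidies at E16.5, P1 and P5. The few UMIs of Cpt1b, Cpt1c and Slc22a5 give wide intervals.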
